A study of Homo sapiens with 19 samples.

Results

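The elements described here are 55 substituted versions of KS and KNG elements in the first plasmid set of a QUASARR-seq series, a massively parallel reporter assay that reads promoter and enhancer activity of 1 DNA element from the same plasmid. They were chosen by name alone: the name starts with KS or KNG and carries base letters, a position number and base letters before the orientation, as in KSUAT0022_A209C.fwd, which is read here as A replaced by C at position 209. They make up 55 of the 211 substituted elements of the set, of 1534 elements listed in it and of 3422 different element names in the series. The 55 carry 41 different substitutions of 13 elements, 10 named KS with 47 substituted versions and 3 named KNG with 8. There are 35 in the fwd and 20 in the rev orientation, and 14 substitutions are present in both. Of the 55, 51 change 1 base and 4 change 2 adjacent bases. The unsubstituted element of the same name and orientation is listed in set 1 for 10 of them, over 5 unsubstituted elements. The labels do not spell out what KS, KNG and the letters after them stand for, nor from which end and on which strand positions are counted, and positions are used here only to order substitutions within an element.

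The host cells were K-562, a human line long grown in culture and derived from a leukaemia, which took up the plasmid pools by electroporation. Set 1 used the vector pDEST-QUASARR-luc-gfp with the minimal promoter pMYC, with 20 µg of plasmid for each electroporation, 5 electroporations pooled for a technical replicate, 2 technical replicates for a biological replicate and a harvest after 6 h. There were 4 groups of 2 libraries: RNA and DNA of the barcode named paBC, taken as the promoter read-out, and RNA and DNA of the barcode named eaBC, taken as the enhancer read-out. All elements of the set were read in these 8 libraries from the same pools of cells, so substituted and unsubstituted elements share every library. Whether replicates 1 and 2 came from separate cultures or from 1 is not given in the labels, so p-values measure only the spread between these libraries. Both replicates carry the same index label, and the number of barcodes for each element is not given here. A substitution therefore cannot be told apart from the barcodes of its version.

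A promoter is a stretch of DNA at which RNA polymerase starts transcription, and an enhancer raises transcription from a promoter at some distance. Both work through short motifs bound by transcription factors, so a change of 1 base can weaken or create a binding site without touching the rest of the element. Many human regulatory elements start transcription and also act as enhancers, and promoter activity usually depends more on orientation than enhancer activity does.

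Activity is given as the log2 ratio of RNA over DNA, computed within each replicate from the deposited signals with 0.5 reads added. Every signal was a whole multiple of 1 step in its library, and that step was taken as 1 read. The promoter read-out held 6617407 and 6916053 RNA reads and 10880944 and 10701434 DNA reads in replicates 1 and 2. The enhancer read-out held 1260027 and 1475068 RNA reads and 3032786 and 3052549 DNA reads. A substituted element had a median of 3718 RNA reads over both promoter libraries (range 59 to 98466) and of 1023 over both enhancer libraries (range 3 to 8493). Reads of PCR libraries without molecular identifiers are not independent molecules, so the counting intervals given below cover counting error only. The SD of the log2 ratio over 2 replicates had a median of 0.12 in the promoter and 0.08 in the enhancer read-out. In the promoter read-out, RNA replicate 1 lay above RNA replicate 2 by a median of 0.11 log2 units over all elements, which widens the spread that the tests use.

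Nearly all substituted KS elements had RNA above DNA in both read-outs, and 1 KNG element did so, in the enhancer read-out. In the authors' deposited table for the promoter read-out, 45 of the 54 substituted elements tested had RNA above DNA at an limma adjusted p under 0.05, where 56.1% of all 1528 elements did, and 5 had RNA below DNA, where 26% did. The 45 were 45 of 46 KS elements tested, and the 5 were 5 of 8 KNG elements. In the authors' deposited table for the enhancer read-out, 46 of 54 were higher, against 54.6% of all elements, and 1 was lower, against 11.8%. Of the 46, 45 were among 47 KS elements and 1, KNGAT0016_C119T.rev, among 7 KNG elements tested. KNGAT0016_C119T.rev had a log2 fold change of 0.16 there, below the median of 0.23 over all elements tested. In the promoter read-out that median was 0.39. The element left without a test was KSUAT0156_GG73TT.fwd in the promoter and KNGUT0054_C152T.fwd in the enhancer read-out. No test compared the KS with the KNG names.

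Levels differed far more between elements than between substitutions of 1 element. Per element, the median log2 ratio over its substituted versions ran from -0.45 to 4.59 in the promoter read-out and from -0.68 to 3.46 in the enhancer read-out. The enhancer low end is KNGUT0054_C152T.fwd alone, with 3 RNA reads and replicates of -2.10 and 0.75, and the other KNG versions had enhancer means of -0.37 or above. Over the 15 combinations of element and orientation that hold at least 2 substitutions, the distance between the lowest and the highest substitution had a median of 0.42 (range 0.01 to 1.01) in the promoter and 0.26 (range 0.003 to 0.80) in the enhancer read-out. The most active versions as promoters were those of KSSAT0056.rev, and as enhancers those of KSUUT0021. Across the 55, promoter and enhancer log2 ratios correlated at Pearson's r = 0.77, a description only, since versions of 1 element share almost all their sequence and all share the libraries.

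KSUAT0022 was the element with the most substitutions set against its unsubstituted form, and all 7 versions fell in both read-outs. They change positions 209, 212, 213 and 214, a cluster of neighbouring bases. As fwd promoters, KSUAT0022_A209C had log2 ratios of 2.24 and 2.18 in replicates 1 and 2, KSUAT0022_A212G 1.97 and 1.91, KSUAT0022_T213C 2.35 and 2.12, and KSUAT0022_G214A 2.46 and 2.35. The unsubstituted KSUAT0022.fwd had 3.68 and 3.57. Every substituted value thus lay more than 1 log2 unit below both unsubstituted ones. Among the 4 versions limma called 1 of 6 pairs, G214A above A212G by 0.46 ± 0.14 (limma adjusted p = 0.0053).

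The fwd promoter changes were -1.41 ± 0.14 for A209C, -1.68 ± 0.14 for A212G, -1.39 ± 0.14 for T213C and -1.22 ± 0.14 for G214A (log2, substituted minus unsubstituted, ± SE), or 2.66-, 3.20-, 2.61- and 2.32-fold lower. Their limma adjusted p-values were 4.0e-11, 1.0e-12, 8.1e-11 and 1.4e-09. The reads behind them were many: KSUAT0022_A209C.fwd had 13144 and 14385 RNA reads, against 31607 and 33422 for KSUAT0022.fwd. DNA reads were 15655 and 15306 for the substituted and 13898 and 13570 for the unsubstituted element. All 4 pairs share the unsubstituted element, so an error in its own level would move all 4.

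In the rev orientation the versions with the same substitution names fell by less as promoters. KSUAT0022_A209C.rev had 2.06 and 1.89, KSUAT0022_A212G.rev 2.38 and 2.20, and KSUAT0022_T213C.rev 2.08 and 1.90, against 2.94 and 2.72 for KSUAT0022.rev. Again no substituted value reached an unsubstituted one. The changes were -0.85 ± 0.14, -0.54 ± 0.14 and -0.84 ± 0.14 (limma adjusted p = 3.9e-06, 0.0017 and 4.6e-06). The change of A212G.rev kept its size but not its call when 1 DNA library was left out, with -0.55 (adjusted p = 0.14) without DNA replicate 1 and -0.52 (adjusted p = 0.18) without DNA replicate 2.

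As enhancers, the fwd versions had log2 ratios of 0.77 and 0.84 (A209C), 0.87 and 0.89 (A212G), 0.86 and 0.92 (T213C) and 0.76 and 0.81 (G214A), and KSUAT0022.fwd had 1.65 and 1.65. The rev versions had 0.72 and 0.56 (A209C), 0.90 and 0.90 (A212G) and 0.68 and 0.65 (T213C), and KSUAT0022.rev had 1.52 and 1.52. All 7 versions stood apart from their unsubstituted element in both replicates and kept part of the activity. Enhancer changes ran from -0.76 ± 0.05 (T213C) to -0.87 ± 0.08 (G214A) in fwd and from -0.62 ± 0.06 (A212G) to -0.88 ± 0.06 (A209C) in rev, with limma adjusted p-values of at most 8.7e-06.

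Over all 10 substituted elements with an unsubstituted partner, 7 were lower and 0 higher in the promoter read-out, where 36% of the 25 pairs of the table were lower and 0% higher. At an unadjusted p under 0.05 there were 8, and a z test with the authors' standard errors called 8. In the enhancer read-out 7 of the 9 pairs fitted were lower and 0 higher, where 70.8% of the 24 pairs of the table were called, 54.2% lower and 16.7% higher. There, 7 had an unadjusted p under 0.05 and the z test called 7. The 7 in each read-out were the 7 KSUAT0022 versions, and the KNG pairs made none of the calls.

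The KNG elements with a partner had RNA near or below DNA, and limma called none of their 3 promoter and 2 enhancer changes. KNGAT0016_C119T.fwd had promoter ratios of -0.08 and -0.12, against -0.32 and -0.18 for KNGAT0016.fwd, a change of 0.15 (95% interval -0.13 to 0.43). KNGAT0016_C119T.rev had 0.08 and -0.05, against 0.18 and -0.03, a change of -0.06 (-0.34 to 0.23). Without RNA replicate 2 both were called, at 0.22 (adjusted p = 9.7e-04) and -0.10 (adjusted p = 0.012). The intervals over all libraries exclude falls as large as those of KSUAT0022 in the same orientation. However, the mean promoter ratios of the unsubstituted elements were -0.25 (fwd) and 0.08 (rev) for KNGAT0016 and 3.62 and 2.83 for KSUAT0022. With so little activity to lose in KNGAT0016, the sizes of the falls cannot show whether C119T matters less. As enhancers, the C119T changes were -0.01 (-0.14 to 0.13) in fwd and -0.06 (-0.17 to 0.05) in rev.

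KNGUT0054_C152T.fwd had discordant replicates. Its promoter ratios were -0.83 and 0.16, from 161 and 359 RNA reads, against -0.93 and -0.72 for KNGUT0054.fwd. The substituted and unsubstituted ranges overlapped, although the substituted value was the higher within each replicate. The change of 0.49 ± 0.21 had an limma adjusted p of 0.066. It was called with an additive replicate block (adjusted p = 0.0027), by the z test (0.51, adjusted p = 0.038) and without RNA replicate 1 (0.90, adjusted p = 4.9e-05). In the enhancer read-out the element had 1 and 2 RNA reads over 28 and 5 DNA reads, under the minimum of 10 DNA reads in each library, and no change was fitted.

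Whether a substitution moved the 2 read-outs unequally was tested as the promoter minus the enhancer change, in log2 units. The unsubstituted KSUAT0022.fwd had mean log2 ratios of 3.62 as promoter and 1.65 as enhancer, and KSUAT0022.rev 2.83 and 1.52. With more promoter than enhancer activity to lose, the differences cannot show whether a loss is larger relative to the starting level. In fwd, KSUAT0022_A212G lowered promoter activity by more than enhancer activity, with a promoter minus enhancer difference of -0.91 ± 0.15 (limma adjusted p = 5.7e-08), as did T213C at -0.62 ± 0.15 (adjusted p = 2.3e-04) and A209C at -0.57 ± 0.15 (adjusted p = 8.4e-04). These were 3 of 9 pairs, all lower, where 29.2% of the 24 pairs of the table were called, 4.17% higher and 25% lower. For G214A the difference of -0.35 had an adjusted p of 0.061, and it was called with an additive replicate block (adjusted p = 0.033). With differences formed within each replicate 5 of the 9 were called, G214A (adjusted p = 0.0057) and KNGAT0016_C119T.fwd (0.16, adjusted p = 0.020) in addition. In rev the differences of A209C, A212G and T213C were 0.03 (95% interval -0.26 to 0.33), 0.09 (-0.21 to 0.38) and 0.02 (-0.27 to 0.31). Leaving out either DNA library left only the A212G.fwd call of the 3.

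For KSUAT0022 the promoter change was called as different between orientations, and the enhancer change was not. The 3 promoter calls share the unsubstituted fwd and rev elements, so they are not independent. Orientation differences were not tested between the read-outs. The fwd minus rev difference of the promoter change was -1.14 ± 0.17 for A212G (limma adjusted p = 7.0e-08), -0.57 ± 0.17 for A209C (adjusted p = 0.0045) and -0.55 ± 0.17 for T213C (adjusted p = 0.0047). These were 3 of 4 substitutions, where 50% of the 8 of the table were called. The unsubstituted element itself was a stronger promoter in fwd than in rev, by 0.79 ± 0.12 (limma adjusted p = 3.7e-04). Fwd minus rev was 0.23 (95% interval 0.01 to 0.45, limma adjusted p = 0.066) for A209C and 0.25 (-0.02 to 0.51, limma adjusted p = 0.092) for T213C, which was called with differences formed within each replicate (adjusted p = 0.036). For A212G the sign was the opposite, at -0.35 ± 0.10 (limma adjusted p = 0.012). For the enhancer change, limma called 0 of 4, with 0 at an unadjusted p under 0.05 and 0 by the z test, where 25% of 8 were called, 12.5% in each direction. The enhancer differences of fwd minus rev for KSUAT0022 ran from -0.15 (A212G, 95% interval -0.33 to 0.04) to 0.10 (T213C, -0.07 to 0.27). Without either DNA library only the A212G promoter difference was still called.

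Since 45 of the 55 have no unsubstituted partner in set 1, substitutions of the same element and orientation were compared with each other, the later position minus the earlier. In the promoter read-out 23 of 63 pairs were called, 7 higher and 16 lower, where 33.2% of the 253 such pairs of the table were called, 13.8% higher and 19.4% lower. In the enhancer read-out 9 of 63 were called, 2 higher and 7 lower, where 23.6% of 250 were, 12% higher and 11.6% lower. Both shares are near or below those of the table. Pairs of 1 element share members, and the fit gave all promoter pairs the same SE of 0.14 whatever their depth, so for elements with few reads the counting interval is given as well. For 3 of the 23 promoter pairs the 95% counting interval held 0. With differences formed within each replicate the counts were 38 (promoter) and 2 (enhancer). Leaving out 1 library moved the promoter count to 8 and 7 without DNA replicates 1 and 2, and to 44 and 45 without RNA replicates 1 and 2. The enhancer count was then 1 and 2, and 16 and 13. In all 11 or 12 refits that could be made, 7 promoter pairs and 1 enhancer pair were still called. There were 4 pairs called in both read-outs, all 4 in the same direction, 19 called in the promoter read-out alone and 5 in the enhancer read-out alone. The promoter minus enhancer difference itself was called for 5 of 63 pairs, 3 higher and 2 lower, where 14% of 250 were, 4.4% higher and 9.6% lower. The fwd minus rev difference was called for 4 of 7 substitution pairs as promoters, where 49.2% of 61 were, 26.2% higher and 23% lower. As enhancers limma called 0 of 7, with 0 at an unadjusted p under 0.05 and 0 by the z test, where 23.3% of 60 were called, 16.7% higher and 6.67% lower.

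KSUUT0008.fwd carries 5 substitutions between positions 72 and 78 and held 6 of the 9 enhancer calls. As enhancers, KSUUT0008_C72T had log2 ratios of 2.69 and 2.70, G73A 2.80 and 2.63, GG73TT 2.34 and 2.26, G74C 1.99 and 1.84, and T78A 2.47 and 2.47. G74C was thus the lowest in both replicates and C72T and G73A the highest. G74C lay below C72T by -0.78 ± 0.08 (limma adjusted p = 9.7e-04), below G73A by -0.80 ± 0.10 (adjusted p = 0.0016) and below GG73TT by -0.38 ± 0.09 (adjusted p = 0.017), and T78A lay above G74C by 0.56 ± 0.09 (adjusted p = 0.0050).

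The version GG73TT, which by its name replaces GG by TT from position 73, lay between the single changes G74C and G73A. Its replacing bases differ from theirs, so GG73TT is not the combination of the single changes. Its enhancer difference was -0.42 ± 0.09 from G73A (limma adjusted p = 0.017) and -0.40 ± 0.08 from C72T (adjusted p = 0.012). With differences formed within each replicate, only the differences of G74C from C72T and G73A kept their calls. The G74C minus C72T difference was the enhancer pair called in every refit.

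As promoters the KSUUT0008 versions stood in nearly the same order, with C72T and G73A close together at the top and G74C at the bottom. C72T had 2.87 and 2.70, G73A 2.85 and 2.70, T78A 2.71 and 2.53, GG73TT 2.53 and 2.41, and G74C 2.37 and 2.21. G74C lay below C72T by -0.50 ± 0.14 (limma adjusted p = 0.0026) and below G73A by -0.48 ± 0.14 (adjusted p = 0.0036). The promoter minus enhancer difference of G74C minus C72T was 0.29 (95% interval -0.09 to 0.66), not called.

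KSSAT0056 is the most active promoter element of the 13. In rev, KSSAT0056_C33T had promoter ratios of 5.10 and 4.89, C43A 4.91 and 4.70, C57T 4.88 and 4.72, and G47A 4.66 and 4.51, on 24916 to 49622 RNA reads per library. Taken over both replicates, the range of C43A overlapped with those of C33T and C57T. Within each replicate C33T lay above C43A, while C43A and C57T changed order. Both values of C33T lay above those of C57T, and both values of G47A lay below those of the others. G47A lay below C33T by -0.41 ± 0.14 (limma adjusted p = 0.016), and the other 5 pairs were not called. As enhancers C57T was lowest by mean, with 2.67 and 2.57, and C33T again highest, with 2.94 and 2.90, a difference C57T minus C33T of -0.30 ± 0.08 (adjusted p = 0.027) that was not called when formed within replicates (adjusted p = 0.10).

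In fwd, KSSAT0056_G288A stood out as a promoter. It had 3.13 and 2.98, against 3.89 and 3.73 for T293A and 4.04 and 3.76 for GG77TT. G288A lay below GG77TT by -0.84 ± 0.14 (limma adjusted p = 5.3e-08), and T293A lay above G288A by 0.75 ± 0.14 (adjusted p = 1.3e-06). Both were called in every refit. As a promoter GG77TT had only 305 and 316 RNA reads over 104 and 112 DNA reads, and no counting interval is given for it. As enhancers no pair of the 3 was called (lowest limma adjusted p = 0.36): G288A had 1.72 and 1.74, T293A 1.89 and 1.81, and GG77TT 2.15 and 1.29 on 31 and 21 RNA reads. The promoter minus enhancer difference of T293A minus G288A was 0.63 ± 0.16 (limma adjusted p = 0.013) and was called in 10 of 12 refits.

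KSSUT0005.fwd showed the same order in both read-outs. As promoters, C28A had 3.07 and 2.90, G208A 2.59 and 2.48, and A74T 2.16 and 1.97. All 3 pairs were called: A74T minus C28A was -0.92 ± 0.14 (limma adjusted p = 1.9e-09), G208A minus A74T 0.47 ± 0.14 (adjusted p = 0.0050) and G208A minus C28A -0.46 ± 0.14 (adjusted p = 0.0063). As enhancers, C28A averaged 1.97 ± 0.04, G208A 1.77 ± 0.01 and A74T 1.56 ± 0.08 (SD over 2 replicates). A74T minus C28A was the called pair of the 3, at -0.41 ± 0.08 (limma adjusted p = 0.014), and was not called with differences formed within each replicate (adjusted p = 0.065).

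In rev, C28A and G208A of KSSUT0005 were nearly equal. Their promoter ratios were 2.30 and 2.13 for G208A and 2.33 and 2.13 for C28A, a G208A minus C28A difference of -0.01 (95% interval -0.30 to 0.27). The enhancer difference was -0.003 (-0.20 to 0.19). C28A was a stronger promoter in fwd than in rev, by 0.76 ± 0.13 (limma adjusted p = 0.0011), while its enhancer difference was 0.05 (-0.09 to 0.19).

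KSUAT0156.fwd carries 5 substitutions, at low levels in both read-outs. As promoters, T21A had 0.99 and 0.89, CC71AA 0.61 and 0.79, C144T 0.60 and 0.65, C145T 0.59 and 0.44, and GG73TT 0.29 and -0.08. GG73TT rests on 31 and 28 RNA reads over 144 DNA reads in each library, and its replicate 1 did not reach the others. GG73TT minus T21A was -0.83 ± 0.14 (limma adjusted p = 7.6e-08, 95% counting interval -1.24 to -0.42), a call kept in every refit that could be made. GG73TT minus CC71AA was -0.59 (counting interval -0.997 to -0.187) and C144T minus GG73TT 0.52 (0.11 to 0.92). Without RNA replicate 2 these were -0.35 and 0.31. Unlike the difference from T21A they were not called in every refit, but in 10 of 11 and 9 of 11. The call for C145T minus GG73TT, 0.41, had a counting interval of -0.01 to 0.82. Between well-read versions, C145T lay below T21A by -0.43 ± 0.14 (adjusted p = 0.012).

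As enhancers no KSUAT0156 pair of 10 was called (lowest limma adjusted p = 0.083), and GG73TT, with 0.48 and 0.52 on 11 and 16 RNA reads, was highest by mean. The promoter minus enhancer difference of GG73TT minus T21A was -0.89 ± 0.24 (limma adjusted p = 0.017), and that of C144T minus GG73TT 0.90 ± 0.22 (adjusted p = 0.012). The first was called in 6 of 10 refits. Without RNA replicate 2 it was -0.53 (adjusted p = 0.052), and it was not called without DNA replicate 1 (-0.75, adjusted p = 0.31), without DNA replicate 2 (-1.03, adjusted p = 0.059) or with robust moderation and a trend (adjusted p = 0.055). The second was called in 8 of 10 refits, and not without DNA replicate 1 (0.78, adjusted p = 0.29) or 2 (1.02, adjusted p = 0.059). Neither has a counting interval here.

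KSUUT0136 carries 4 substitutions in rev and 2 in fwd, and 1 of them, C339T, stood apart as a promoter. As rev promoters, C65T had 1.91 and 1.86, G66A 1.72 and 1.67, C29A 1.72 and 1.59, and C339T 1.01 and 0.74. C339T was lowest in both replicates on 41 and 38 RNA reads over 115 and 110 DNA reads. It lay below C65T by -1.01 ± 0.14 (limma adjusted p = 5.1e-11, 95% counting interval -1.42 to -0.59), below G66A by -0.82 (-1.20 to -0.44) and below C29A by -0.78 (-1.16 to -0.39), and all 3 were called in every refit. As enhancers C339T had 2.58 and 1.84, C29A 2.85 and 2.59, C65T 2.84 and 2.85, and G66A 2.90 and 2.77. C339T was again lowest by mean, and no pair was called (lowest limma adjusted p = 0.092).

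In fwd, the promoter order of C65T and C29A was opposite to that in rev by mean. C65T had 0.80 and 0.66 and C29A 1.25 and 1.02, so C65T lay below C29A by -0.41 ± 0.14 (limma adjusted p = 0.017). In rev the C65T minus C29A difference was 0.23 (95% interval -0.05 to 0.51), and the fwd minus rev difference of C65T minus C29A was -0.64 ± 0.20 (adjusted p = 0.0049). As fwd enhancers the order turned by mean, with 2.42 and 2.44 for C65T and 2.27 and 2.26 for C29A, not called (limma adjusted p = 0.22). The promoter minus enhancer difference of C65T minus C29A was -0.57 ± 0.18 (limma adjusted p = 0.038).

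KNGAT0122.fwd holds 5 of the 8 KNG versions, at positions 8, 16, 74, 75 and 76, all with RNA below DNA as promoters in the authors' deposited table. As promoters, T8G had -0.27 and -0.40, G16T -0.62 and -0.24, T75C -0.39 and -0.50, G74T -0.62 and -0.39, and A76G -0.84 and -0.78. A76G was lowest in both replicates, on 31 and 33 RNA reads. A76G minus T8G was -0.48 ± 0.14 (limma adjusted p = 0.0041, counting interval -0.87 to -0.08). For A76G minus G16T, -0.38, and A76G minus T75C, -0.37, the counting intervals of -0.79 to 0.03 and -0.78 to 0.05 held 0, and neither was called by the z test (adjusted p = 0.13 and 0.17). A76G minus G16T was -0.17 (adjusted p = 0.089) without RNA replicate 2 and -0.60 (adjusted p = 1.6e-06) without RNA replicate 1, and had an adjusted p of 0.052 with differences formed within each replicate. As enhancers the 5 had means from -0.37 (T75C) to -0.10 (T8G), and no pair of 10 was called (lowest limma adjusted p = 0.40).

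For KSUAE0003.rev, C343T lay above A322G in both read-outs, by 0.36 ± 0.14 as promoter (0.57 and 0.38 for C343T, 0.15 and 0.08 for A322G, limma adjusted p = 0.040) and by 0.35 ± 0.08 as enhancer (0.66 and 0.66, against 0.31 and 0.30, limma adjusted p = 0.017). The enhancer call was not made with differences formed within each replicate (adjusted p = 0.074). It was made in 8 of 12 refits, and the promoter call in 10 of 12. In fwd the KSUAE0003 differences of C343T minus A322G were 0.01 (95% interval -0.27 to 0.30) as promoter and 0.25 (-0.29 to 0.79) as enhancer. For KSUUT0029.rev, G230A lay above T215G as promoter by 0.42 ± 0.14 (adjusted p = 0.012). In fwd the difference was -0.11 (-0.40 to 0.17), and the fwd minus rev difference of G230A minus T215G was -0.54 ± 0.20 (adjusted p = 0.018).

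The orientation of the substituted element itself was compared for the 14 substitutions present in both. As promoters 8 of 14 differed, 3 higher and 5 lower in fwd than in rev, where 63.5% of the 716 elements with both orientations did, 44.3% higher and 19.3% lower. As enhancers 4 of 14 differed, 2 higher and 2 lower, where 26.4% of 712 did, 9.13% higher and 17.3% lower. Counts were 2 and 2 as promoters and 0 and 0 as enhancers without DNA replicates 1 and 2, and 12 and 14 as promoters and 6 and 4 as enhancers without RNA replicates 1 and 2. KSUUT0136_C65T had the widest gap, with 0.80 and 0.66 in fwd and 1.91 and 1.86 in rev as promoter, a difference of -1.16 ± 0.10 (limma adjusted p = 2.3e-05). As enhancer its fwd minus rev difference was -0.42 ± 0.12 (adjusted p = 0.041), which had an adjusted p of 0.052 with an additive replicate block. KSUUT0029_G230A had an enhancer difference of -0.39 (limma adjusted p = 0.12) that this block called (adjusted p = 0.037). KSUAT0022_T213C was called as enhancer at 0.23 (limma adjusted p = 0.044), and not with differences formed within each replicate (adjusted p = 0.11).

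KSUUT0021_C367A was the strongest enhancer of the 55 in fwd, with 3.74 and 3.53, against 3.19 and 3.36 in rev. Its fwd minus rev difference was 0.36 ± 0.11 as enhancer (limma adjusted p = 0.049) and -0.37 ± 0.12 as promoter (adjusted p = 0.020), where fwd had 3.42 and 3.29 and rev 3.81 and 3.64. The enhancer difference was called in 5 of 12 refits. It was 0.19 (adjusted p = 0.44) without DNA replicate 1 and 0.53 (adjusted p = 0.059) without DNA replicate 2, and had an adjusted p of 0.075 with an additive replicate block. KSUUT0003_G273A did not differ beyond the threshold in either read-out, with fwd minus rev of 0.22 (95% interval -0.005 to 0.45) as promoter and -0.03 (-0.28 to 0.23) as enhancer.

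Set 2 of the series, another plasmid pool that also held other minimal promoters, lists unsubstituted elements with pMYC and was set beside set 1 as a description. Over 1137 elements in both sets, the authors' deposited log2 fold change of set 1 minus that of set 2 had a median of 0.21 in the promoter read-out (5th to 95th percentile -0.28 to 0.87), and over 1139 elements a median of 0.12 in the enhancer read-out (-0.34 to 0.66). The tables were normalised apart, so a single difference within that range shows nothing of a substitution. In the promoter read-out the difference of a substituted element from its unsubstituted element in set 2 lay within that range for 33 of 45, below it for 6 and above it for 6. In the enhancer read-out it lay within for 30 of 49, below for 7 and above for 12.

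Below the range lay 5 KSUAT0022 versions and KNGAT0016_C119T.rev as promoters, and 6 KSUAT0022 versions and KSUUT0008_G74C.fwd as enhancers. For KNGAT0016.rev the unsubstituted element itself was low in set 1, at 0.08 against 0.40 in set 2 in the authors' deposited tables, beside 0.02 for C119T. In the authors' deposited tables KSUAT0022.fwd of set 2 had a promoter log2 fold change of 3.16, and the 4 fwd versions of set 1 had 2.21 (A209C), 1.94 (A212G), 2.23 (T213C) and 2.40 (G214A). All 4 differences lay below the range. In rev, A209C (-0.281) was just outside it, and T213C (-0.27) and A212G (0.03) were within it, set 1 minus set 2. The unsubstituted KSUAT0022 was itself higher in set 1 in the authors' deposited promoter tables. It had 2.83 against 2.26 in rev and 3.62 against 3.16 in fwd, which makes these differences smaller than the falls within set 1. KSUUT0008_G74C.fwd was at 1.91 as enhancer, against 2.40 for the set 2 element in the authors' deposited tables. Its neighbours C72T, at 2.70, and G73A, at 2.71, were within.

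Above the range in both read-outs were versions of KSUUT0136, both of KSUUT0021 and KSUUT0003_G273A.rev, and as enhancers also 3 versions of KSSUT0005 and KSSAT0056_C33T.rev. The authors' deposited tables gave KSUUT0136_C29A.fwd 1.13 as promoter and 2.26 as enhancer, against -0.04 and 0.87 for KSUUT0136.fwd of set 2. KSUUT0021_C367A had 3.36 in fwd and 3.73 in rev as promoter, against 2.36 and 2.75 for the set 2 elements in the authors' deposited tables. No test was made across the sets, and the part that the pool plays in these differences was not tested.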

How the data were processed

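Promoter and enhancer read-outs of substituted KS and KNG elements were compared in 8 libraries of set 1 (RNA and DNA, 2 replicates each). The signal columns were deposited by the authors without a named unit; all values were whole multiples of 1 step for each library (tolerance 0.02), taken as 1 read. The deposited log2 fold changes set RNA over DNA and carry limma's column names in the file headers. Score columns deposited by the authors hold limma's t statistic and log odds, and t gave the standard errors of the z test. The deposited raw and adjusted p-values are the authors', per the file headers, and the adjusted ones gave the RNA over DNA counts. The submitters' processing notes name fastp, edgeR, limma and hg38; aligner, barcode matching and scaling are not given in the sources used here.

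Own values are log2 of (reads + 0.5) times the step. limma 3.58.1 in R 4.3.3 was fitted with empirical Bayes to 8 log2 values for each pair of elements (16 for differences of differences) over all pairs of the table, of any name, with at least 10 DNA reads in each DNA library. Benjamini-Hochberg adjustment covered all pairs of a comparison, and pairs under 0.05 were called. Intervals are 95%. The script was tested on simulated data. Tables were handled with Python 3.11.15, numpy 2.4.6, pandas 2.3.3 and scipy 1.17.1.

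Members, comparisons and the rule for named elements were chosen with earlier results of these data known. The rule takes, for each read-out, the 10 largest falls and rises among called pairs, the lowest and highest substitution of each element and orientation, up to 5 called differences each way between read-outs and between orientations, and every KNG element. Comparisons between substitutions, between orientations of 1 element and with set 2 were added after the tables were seen, and KSUUT0003 and intermediate substitutions of a described element were named after their values were seen. The signals had been planned for as counts.

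Per the labels' protocols, RNA and DNA libraries of a replicate come from 1 pool of cells, so equal numbers pair them. The main limma fits held no replicate term and so did not use this pairing. Only the alternatives with a replicate block did. Deviations of RNA and DNA with the same number correlated at -0.02 over 1534 elements in the promoter and -0.01 over 1529 in the enhancer read-out. Alternatives were replicate blocks, other numbers of reads added, other filters, robust moderation with a trend, a z test with the authors' standard errors, stricter thresholds and each library left out.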

Additional observations from a re-analysis of the deposited data

Results flagged for a closer look

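Differences between read-outs or between orientations that passed the test of the difference itself (limma, adjusted p under 0.05) are listed here with their log2 values, and no explanation for them was tested. The promoter change exceeded the enhancer change in log2 units for KSUAT0022_A209C.fwd, A212G.fwd and T213C.fwd, with promoter minus enhancer differences of -0.57, -0.91 and -0.62. The unsubstituted KSUAT0022.fwd had more promoter than enhancer activity to lose, with mean log2 ratios of 3.62 and 1.65. Between substitutions of 1 element, the promoter minus enhancer differences were 0.63 for KSSAT0056_T293A.fwd minus G288A.fwd, 0.56 for KSUAT0022_G214A.fwd minus A212G.fwd, -0.89 for KSUAT0156_GG73TT.fwd minus T21A.fwd, 0.90 for KSUAT0156_C144T.fwd minus GG73TT.fwd and -0.57 for KSUUT0136_C65T.fwd minus C29A.fwd. These 5 were of 63 pairs, where 14% of 250 pairs of the table were called, and with differences formed within each replicate 12 were.

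The promoter change over the unsubstituted element differed between fwd and rev for KSUAT0022_A209C, A212G and T213C, with fwd minus rev differences of -0.57, -1.14 and -0.55. Between substitutions, the fwd minus rev promoter differences were -0.58 for KSUAT0022_A212G minus A209C, 0.60 for KSUAT0022_T213C minus A212G, -0.54 for KSUUT0029_G230A minus T215G and -0.64 for KSUUT0136_C65T minus C29A. These 4 were of 7 substitution pairs, where 49.2% of 61 were called. In the enhancer read-out limma called 0 of the same 7, with 0 at an unadjusted p under 0.05 and 0 by the z test, where 23.3% of 60 were called.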

How the results depend on the processing

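Calls against the unsubstituted element were the most stable: the enhancer count stayed at 7 under every refit, and the promoter count at 6 to 9. The edgeR test listed as an alternative was not run, since the signals are not given as counts. With a replicate block formed as differences within each replicate, calls numbered 5 for the promoter minus enhancer change, 38 and 2 for promoter and enhancer differences between substitutions and 12 for their promoter minus enhancer difference. This block moved no other count by over 1.5 times, nor did the additive replicate block. Enhancer differences between substitutions numbered 16 by the z test and 15 with robust moderation and a trend. At an adjusted p under 0.01, calls between substitutions numbered 15 (promoter), 3 (enhancer), 0 (promoter minus enhancer) and 2 (promoter fwd minus rev), and fwd minus rev calls of 1 element 4 (promoter) and 0 (enhancer). With a minimum log2 change of 0.5, differences between substitutions numbered 9 and 3, and fwd minus rev calls 3 and 0, as promoters and enhancers.

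With 1 library left out, counts ran from 1 to 5 (promoter minus enhancer change), 1 to 4 (fwd minus rev change), 7 to 45 and 1 to 16 (promoter and enhancer differences between substitutions), 2 to 14 and 0 to 6 (promoter and enhancer fwd minus rev of 1 element), 0 to 19 (promoter minus enhancer between substitutions), 0 to 6 and 0 to 1 (promoter and enhancer fwd minus rev between substitutions). The lone library was assumed to vary like the others, and the spread then comes from RNA or DNA alone.

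RNA over DNA counts moved as follows in the authors' deposited tables. Promoters below DNA were 2 at an adjusted p under 0.01, 0 where a 1 log2 unit minimum was added and 9 when centred on the median of the table. Enhancers above DNA were 27 with that minimum. Enhancers below DNA were 0, 0 and 5 under the same 3 settings.

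Of 105 single differences under 1252 alternatives, 126 lost the call, 37 gained it and 12 changed sign, all 12 with a library left out. Ranges over the libraries left out were, for KNGAT0016_C119T, -0.092 to 0.078 (enhancer, fwd), -0.054 to 0.066 (promoter minus enhancer, rev, also -0.036) and -0.0089 to 0.122 (enhancer, fwd minus rev change). For KSUAT0022 they were -0.061 to 0.129 (A209C.rev) and -0.040 to 0.079 (T213C.rev) for promoter minus enhancer, and -0.051 to 0.120 (A209C) for the enhancer fwd minus rev change. For fwd minus rev of 1 element they were -0.145 to 0.224 (promoter) and -0.496 to 0.059 (enhancer) for KSUAE0003_C343T, and as enhancers -0.068 to 0.033 (also 0.019) for KSUAT0022_A212G and -0.092 to 0.036 for KSUUT0003_G273A. KSUAE0003_C343T, not called with all libraries, was called as promoter at 0.224 (adjusted p = 0.0024) without RNA replicate 1 and at -0.145 (adjusted p = 0.017) without RNA replicate 2, and as enhancer at -0.496 (adjusted p = 0.0018) without RNA replicate 2. The cause was not tested. Depth limits versions with under 100 RNA reads, for which counting intervals are given with promoter differences only.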
